A study of Homo sapiens with 16 samples.

Results

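Ribosomal DNA (rDNA) fragments of the human genome were examined for peaks of γ-tubulin, the tubulin that nucleates microtubules and is also found in the nucleus. The peaks were chosen by position: every deposited peak that overlapped 1 of 4 windows in hg19 was taken, namely chr21:9824000-9829000, described in the rule of selection as MIR3648 and MIR3687 in a 45S spacer, chr12:127650000-127652000, chrX:108297000-108298500 and chr2:133010000-133042000. The windows themselves had been selected on earlier results of these lists, among them the scores on chromosome 21, so that the presence and the scores of the peaks are given as a description, with no test. In total, 17 of the 2962 peaks in the 4 lists were members, and they fell on 10 places, a place being the stretch covered by peaks of any list that overlap by at least 1 bp.

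The peaks came from ChIP-seq of MCF10A, a non-tumorigenic line of human breast epithelium, and of γTubulinsh-MCF10A, a population made from it by stable transfection with a γ-tubulin shRNA and Zeocin selection, in which the protein was lowered but not removed. Both were held by a double block with thymidine, which keeps cells at the start of S-phase, and harvested 1 h or 2 h after the block was lifted, so all groups share this treatment. A mixture of rabbit polyclonal γ-tubulin antibodies was used. Of the 16 libraries, 2 ChIP libraries of each condition were pooled by the authors into 1 peak list, and 8 whole cell extract libraries were the controls, so there is no SD between replicates.

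In human cells, rRNA genes are present in long tandem arrays on the short arms of the acrocentric chromosomes. RNA polymerase I transcribes each unit into the 45S pre-rRNA, from which the 18S, 5.8S and 28S rRNAs are cut, and the transcribed units form the nucleolus. The chromosome sequences of hg19 hold stray rDNA-like fragments and not the arrays, so reads from many cellular copies can be placed on a few fragments. The authors kept reads that were placed uniquely in the reference, which removes reads from stretches that several fragments have in common.

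MIR3648 and MIR3687 encode microRNAs and are given for the chromosome 21 window in the selection. In the RefSeq annotation of GRCh38.p14, MIR3648-1 lay inside the rRNA gene RNA45SN2, ahead of RNA18SN2 along the chromosome, and MIR10396B lay inside RNA45SN1 ahead of RNA18SN1. A further copy, MIR3648-2, to which the table ties the mature sequence, lay outside the RNA45SN genes, between RNA28SN1 and MIR10396A. MIR6724-1 preceded RNA45SN2. Positions of that build were not carried over to hg19, so which of the bases under a peak belong to MIR3648, MIR3687 or an rRNA was not analysed here. Of 32 rRNA and microRNA genes listed as rDNA-associated, 30 were in the RefSeq gene table, and 8 mature sequences were found. Of the 8 mature sequences, 4 are printed: that of MIR3648, for which the chromosome 21 window is named, 1 of MIR6724 and 1 of MIR10396B as examples of microRNAs beside and inside the rRNA genes, and miR-663a, which shares a seed with the latter. Sequences are from RefSeq (GRCh38.p14), written 5′ to 3′, with the seed (bases 2 to 8) in capitals.
hsa-miR-3648: aGCCGCGGggaucgccgaggg
hsa-miR-6724-5p: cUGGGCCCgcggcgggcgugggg
hsa-miR-10396b-5p: cGGCGGGGcucggagccggg
hsa-miR-663a: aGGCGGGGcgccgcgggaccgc
The seed of hsa-miR-3648 occurred in no other of the 2370 mature sequences of the table. That of hsa-miR-10396b-5p and hsa-miR-663a was shared by 4 of them. G and C made up 81.0% of hsa-miR-3648, a share reached by 2.83% of the mature sequences, and 91.3% of hsa-miR-6724-5p, reached by 0.338%. RNA was not measured in these libraries.

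The number of rDNA fragment peaks was 3 of 1035 (0.290%) for MCF10A and 10 of 296 (3.38%) for γTubulinsh-MCF10A cells at 1 h. At 2 h it was 1 of 1547 (0.0646%) for MCF10A and 3 of 84 (3.57%) for γTubulinsh-MCF10A. The shorter lists, those of γTubulinsh-MCF10A cells, thus held more of these peaks at each time. By count, fewer were listed at 2 h than at 1 h in both populations. As a share of the list this held for MCF10A alone, since the whole γTubulinsh-MCF10A list was also shorter at 2 h and its share was 3.57% against 3.38%. The peaks covered 541 and 2161 bp at 1 h, and 304 and 586 bp at 2 h, for MCF10A and γTubulinsh-MCF10A respectively.

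**Figure D1:**
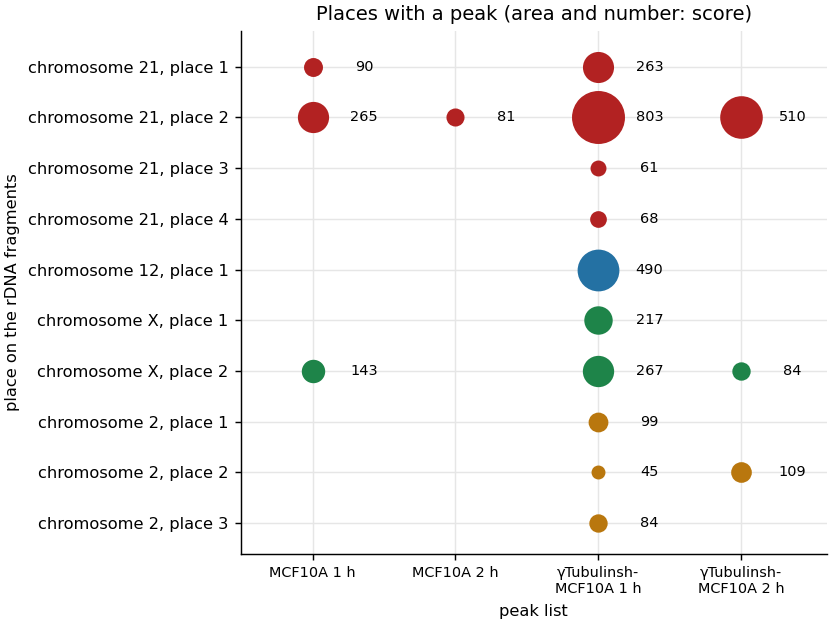
Places on the rDNA fragments (rows, numbered along each window) with a peak in each of the 4 peak lists (columns); the area of a circle and the number beside it give the score. The list of γTubulinsh-MCF10A cells at 1 h has a peak at all 10 places, and chromosome 21 place 2 has a peak in all 4 lists.

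The list of γTubulinsh-MCF10A cells at 1 h had a peak at all 10 places, whereas 14.2% of the 1901 places of the whole genome had one in that list. At 7 of the 10 places a γTubulinsh-MCF10A list and no MCF10A list had a peak, which was the case for 3.84% of all places. No rDNA place had a peak in MCF10A cells alone, compared with 83.8% of all places. Only 1 place, on chromosome 21, had a peak in all 4 lists, against 1.47% of all places. The windows were picked with these lists in view, and these shares describe the 10 places without setting them apart from the rest of the genome. A place without a listed peak has no value in that list, so it is not known how close it came to being listed.

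The chromosome 21 fragment with MIR3648 and MIR3687 held 8 of the 17 peaks, at 4 places. Its leading place, the second along the window, ran from chr21:9825972 to 9826340 over all lists. The score, which is 10 times the −log10 q-value, was 265 for MCF10A and 803 for γTubulinsh-MCF10A cells at 1 h. At 2 h the scores were 81 and 510. By score the peak had rank 19 of 1035 and 893 of 1547 in MCF10A cells, and rank 1 of 296 and 1 of 84 in γTubulinsh-MCF10A cells. It was therefore near the top of 3 lists, and below the median score of 94 in the MCF10A list of 2 h.

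**Figure D2:**
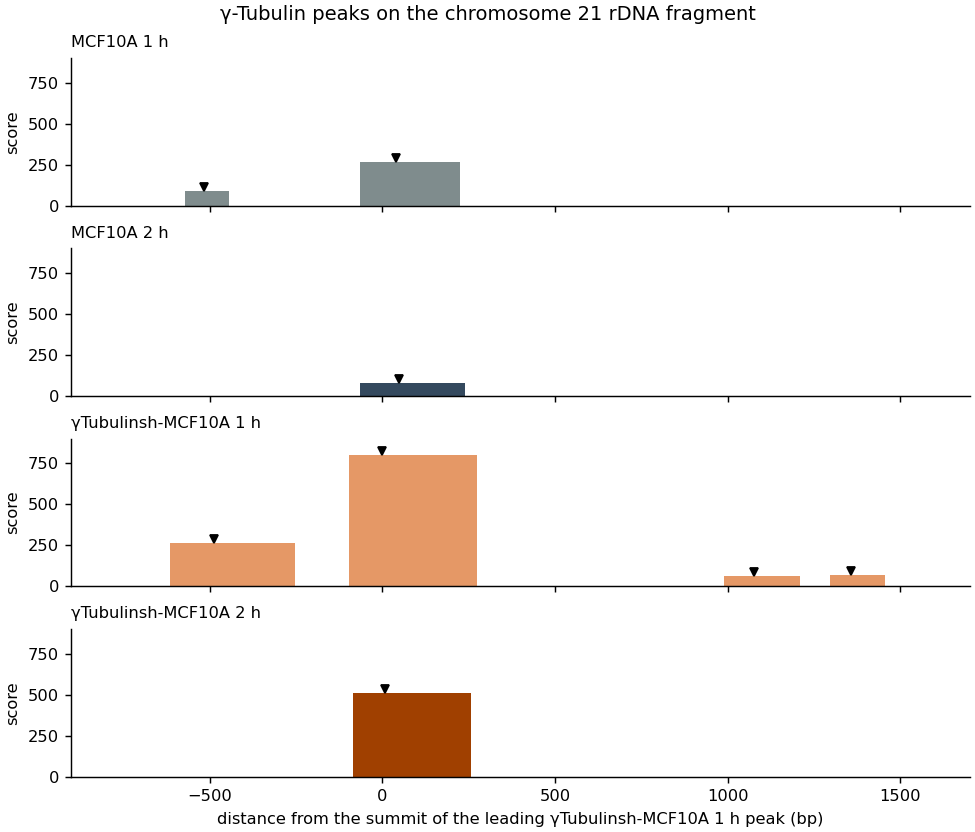
Peaks on the chromosome 21 fragment in the 4 lists, drawn to scale as distance in bp from the summit of the leading peak of γTubulinsh-MCF10A cells at 1 h; bar height is the score and triangles mark summits. The leading peak is present in each list, with scores from 81 to 803, and the peaks to its right are in the 1 h list of γTubulinsh-MCF10A and no other.

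The leading peak had nearly the same borders in the 4 lists. In MCF10A cells it ran from 9826002 to 9826293 at 1 h and from 9826002 to 9826305 at 2 h. The γTubulinsh-MCF10A peak ran from 9825972 to 9826340 at 1 h and from 9825983 to 9826324 at 2 h. Each peak of MCF10A cells lay inside both peaks of γTubulinsh-MCF10A cells, and 292 bp were common to all 4. The lengths of these 4 peaks, in that order, were 292, 304, 369 and 342 bp, against list medians of 151, 183, 140 and 142.5 bp. Summits lay at 9826107 and 9826117 in MCF10A cells and at 9826068 and 9826075 in γTubulinsh-MCF10A cells, within 49 bp of each other. The summits of γTubulinsh-MCF10A cells were 39 bp lower along the chromosome than those of MCF10A cells at 1 h and 42 bp lower at 2 h. With 1 list per condition, no error of the summit position is known.

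Fold enrichment, the ChIP signal at the summit over the local control background, at 1 h was 3.56 for MCF10A and 8.0 for γTubulinsh-MCF10A cells. The values at 2 h were 1.76 and 4.35. It was 2.25 times as high in γTubulinsh-MCF10A as in MCF10A cells at 1 h and 2.47 times as high at 2 h. Between the times it went to 0.495 of its 1 h value for MCF10A and to 0.543 of it for γTubulinsh-MCF10A. None of these ratios has a replicate error.

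The fold enrichment was taken apart into the number of ChIP reads over the summit (pileup) and the control background, both solved from the deposited fold enrichment and p-value. For MCF10A the pileup was 126 reads at 1 h (exact Poisson 95% interval 105 to 150.0) and 187 at 2 h (161 to 216). For γTubulinsh-MCF10A it was 162 at 1 h (138 to 189) and 197 at 2 h (170.5 to 227). The intervals cover counting error only. They take no account of a possible upper limit of the pileup, described below. Since the depths behind the lists are unknown and may differ, pileup and control were also divided by the genome background, the lowest control background of the list. On this scale the MCF10A pileup was 90.1 at 1 h and 110.4 at 2 h, over a control of 24.8 and 62.4. The γTubulinsh-MCF10A pileup was 126 at 1 h and 112 at 2 h, over a control of 15.1 and 25.3.

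The control background at this place therefore spanned a wider range than the ChIP pileup. Under MACS2 defaults the pileup has an upper limit, described below, and its part in the narrower range of the pileup was not tested. At 2 h the pileups of γTubulinsh-MCF10A and MCF10A cells stood in a ratio of 1.01, whereas their control backgrounds stood in a ratio of 0.406. At 1 h the ratios were 1.40 for the pileup and 0.609 for the control. Between 1 h and 2 h the pileup changed by a factor of 1.23 for MCF10A and 0.887 for γTubulinsh-MCF10A, and the control by factors of 2.52 and 1.68. Without the division, the reads at the summit were higher at 2 h in both, by factors of 1.48 and 1.22, so the direction of the γTubulinsh-MCF10A pileup turned with the scaling. The falls in fold enrichment from 1 h to 2 h, and its higher values in γTubulinsh-MCF10A cells, thus went together with changes of the control in the opposite direction; the part of the whole cell extract libraries in them was not tested.

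**Figure D3:**
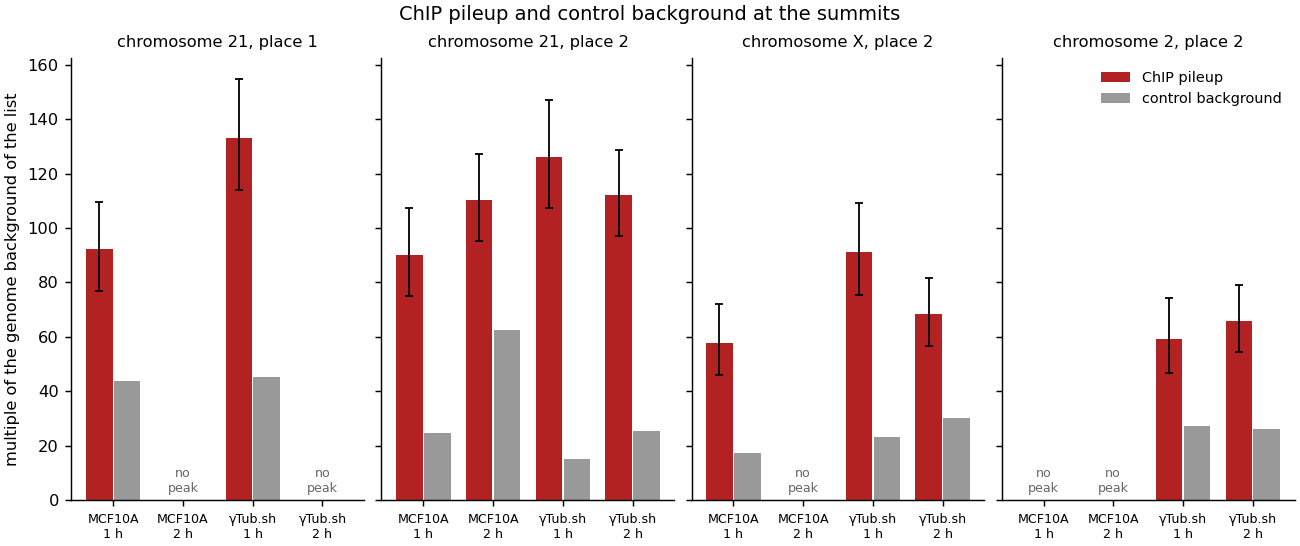
ChIP pileup (red) and control background (grey) at the summit, as multiples of the genome background of the list, for the 4 places with a peak in at least 2 lists; bars start at 0, and error bars are exact Poisson 95% intervals of the pileup, which cover counting error only. The error bars take no account of a possible upper limit of the pileup. At chromosome 21 place 2 the pileup lies between 90.1 and 126 in the 4 lists and the control between 15.1 and 62.4.

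The first place of the chromosome 21 window had a peak at 1 h in both populations and none listed at 2 h. It ran from 9825498 to 9825623 in MCF10A cells, with a score of 90 (rank 468) and a fold enrichment of 2.09, and from 9825452 to 9825813 in γTubulinsh-MCF10A cells, with a score of 263 (rank 6) and a fold enrichment of 2.92. The control was alike here, 43.8 and 45.1 times the genome background. The pileup was 92.2 and 133 times, from 129 reads (108 to 153) and 171 reads (146 to 199). Unlike at the leading place, the higher fold enrichment in γTubulinsh-MCF10A cells at 1 h came with a control ratio of 1.03. Its summit lay 554 bp before the leading summit in MCF10A cells and 488 bp before it in γTubulinsh-MCF10A cells.

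Beyond the leading place, peaks from 9827057 to 9827277 and from 9827363 to 9827521 appeared in the 1 h list of γTubulinsh-MCF10A and in no other. Their scores were 61 and 68 and their fold enrichments 1.66 and 1.69, below the list median of 2.44. Their pileups of 204 and 205 reads were close to the highest pileup of that list, 211 reads, and their control was 95.4 and 94.1 times the genome background, the highest of the members. In each list the highest pileup was at or just below double the length of the shortest peak, with 219 reads and 220 bp at 1 h and 240 of each at 2 h for MCF10A, and 211 and 212 at 1 h and 227 and 230 at 2 h for γTubulinsh-MCF10A. With MACS2 left at its defaults, which keep 1 read per position and strand and list no peak shorter than the fragment length, that double length is the largest pileup a summit can have. Whether the lists were made with these defaults is not known. The methods give a minimum length of 200 bp for the peaks, under a differential peak calling step, and 10 of the 17 members were shorter than that. The pileup of the leading peak was 57.5% and 77.9% of the highest pileup for MCF10A, and 76.8% and 86.8% for γTubulinsh-MCF10A, at 1 h and 2 h.

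On chromosome 12, the 1 h list of γTubulinsh-MCF10A was the only one with a peak, from 127650489 to 127650619. It had a score of 490, second in the list after the leading chromosome 21 peak, and a fold enrichment of 9.94, the highest of the members and rank 3 of 296. This peak was narrow, 131 bp, and had 83 reads at the summit (66.1 to 103). Its control of 5.81 times the genome background was the lowest of the members, and below the list median of 23.2. The next listed peaks on that chromosome, in any list, were 4421008 and 24398137 bp beyond the window, so it stood alone.

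**Figure D4:**
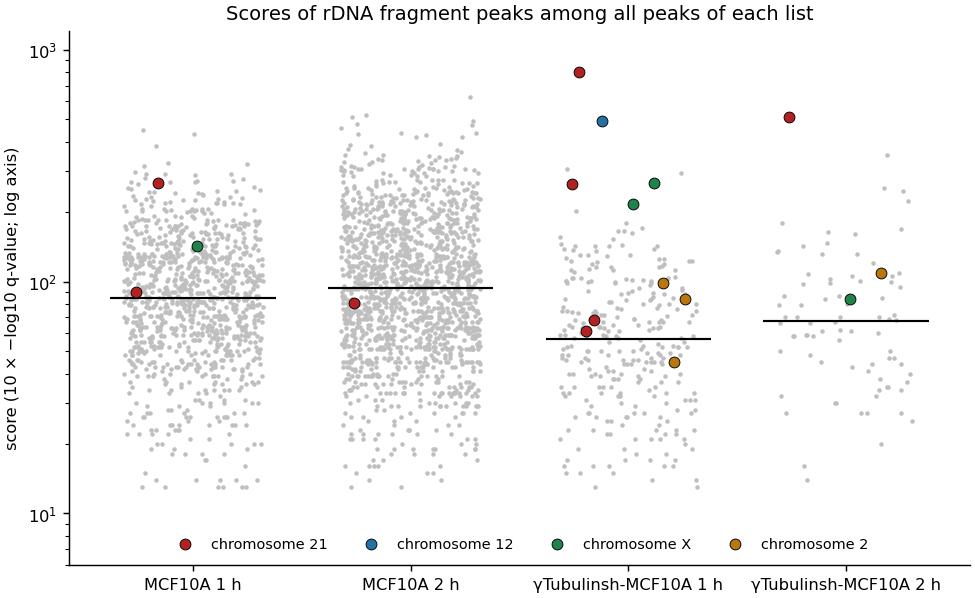
Scores (log axis) of all peaks of each list in grey, with the median as a line and the rDNA fragment peaks in colour by chromosome; points are spread sideways for display only. In γTubulinsh-MCF10A cells the chromosome 21 peaks with scores of 803 and 510 are the highest of their lists, and 5 of the 10 members at 1 h have ranks from 1 to 8.

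On chromosome X, the window held 2 places, 129 bp apart in the list that had both. The second had a peak in 3 lists, from 108297707 to 108297829 for MCF10A at 1 h, from 108297654 to 108297844 for γTubulinsh-MCF10A at 1 h and from 108297707 to 108297830 for γTubulinsh-MCF10A at 2 h. In that order, scores were 143, 267 and 84, with ranks of 191, 5 and 31, and fold enrichments were 3.26, 3.84 and 2.24. The summits fell within 20 bp of each other. The pileup was 57.9, 91.2 and 68.2 times the genome background and the control 17.3, 23.2 and 30.1 times. At 1 h both were higher in γTubulinsh-MCF10A cells, by 1.57 and 1.34 times. The unscaled reads at 1 h were 81 in MCF10A cells (64.3 to 101) and 117 in γTubulinsh-MCF10A cells (96.8 to 140.2). These intervals overlap, which is not a test of the difference, and the depths are unknown. Within γTubulinsh-MCF10A cells the scaled pileup at 2 h was 0.748 of its 1 h value, and the scaled control was 30.1 against 23.2. The unscaled reads were close, 117 at 1 h and 120 at 2 h (99.5 to 143), a ratio of 1.03, so the lower pileup at 2 h appeared with the scaling alone.

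The first place on chromosome X, from 108297391 to 108297524, had a peak only in the 1 h list of γTubulinsh-MCF10A. It had a score of 217 (rank 8), a fold enrichment of 2.55, 183 reads at the summit (157 to 212) and a control of 55.4 times the genome background. Its rank by fold enrichment was 133 of 296, so a high score went with a moderate enrichment at a place with many reads in both ChIP and control.

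On chromosome 2, all peaks were from γTubulinsh-MCF10A cells. The second place had a peak at both times, from 133012557 to 133012930 at 1 h and from 133012803 to 133012922 at 2 h. It was the exception among the places found at both times in these cells, since the score was higher at 2 h (109, rank 17) than at 1 h (45, rank 185), and so was the fold enrichment (2.51 and 2.16). The peak at 2 h lay inside that at 1 h and the summits were 3 bp apart. As a multiple of the genome background, the pileup was 59.2 at 1 h and 66.0 at 2 h, with a control of 27.1 and 25.9. The 76 reads at 1 h (59.9 to 95.1) and 116 at 2 h (95.9 to 139) give a ratio of 1.53, and of 1.11 once divided by the genome background.

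The other places on chromosome 2 were listed at 1 h alone. The peak from 133011957 to 133012068 had a score of 99, a fold enrichment of 4.0 and 46 reads at the summit (33.7 to 61.4), and that from 133038614 to 133038721 a score of 84, a fold enrichment of 3.34 and 52 reads (38.8 to 68.2). These had the fewest reads of the members, and controls of 8.38 and 11.6 times the genome background. The last of them lay 25683 bp from its neighbour in the same list.

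Over the 17 members, the fold enrichment ranged from 1.66 to 9.94, the length from 108 to 374 bp and the control background from 5.81 to 95.4 times the genome background. Members exceeded the median of their own list in 15 of 17 cases for the score, in 14 for the pileup, in 12 for the control and in 9 for the fold enrichment. They thus differed from the typical peak of their lists more often in score and in number of reads than in fold enrichment. Since the windows were chosen with the scores in view, these counts are descriptive.

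Members were also set beside the other peaks of the same list whose control was 0.5 to 2 times their own. In γTubulinsh-MCF10A cells at 1 h, none of 119 such peaks had a higher fold enrichment than the leading chromosome 21 peak (median 2.67) and none of 51 exceeded the chromosome 12 peak (median 3.55). At 2 h none of 28 exceeded the leading peak (median 2.34). In MCF10A cells the leading peak was exceeded by 26 of 352 at 1 h and by 120 of 174 at 2 h. At the first chromosome 21 place, 135 of 277 were higher for MCF10A and 4 of 117 for γTubulinsh-MCF10A. The places beyond the leading one had 38 and 33 of 77 above them. Their pileups of 204 and 205 reads were close to the highest of the list, 211 reads. The part of a possible upper limit of the pileup in these 2 counts was not tested. On chromosome X, 6 of 119 were higher than the first place, and for the second place the numbers were 102 of 392 for MCF10A at 1 h, and 1 of 132 at 1 h and 16 of 26 at 2 h for γTubulinsh-MCF10A. The second place on chromosome 2 had 77 of 121 above it at 1 h and 12 of 28 at 2 h, and the other places there 13 of 84 and 28 of 105. In all, 14 of the 17 members had a fold enrichment above that of more than 0.5 of the peaks with a similar control. At a given control the fold enrichment and the score rise together, and the windows were selected with the scores known, so these counts describe the members and support nothing further.

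**Figure D5:**
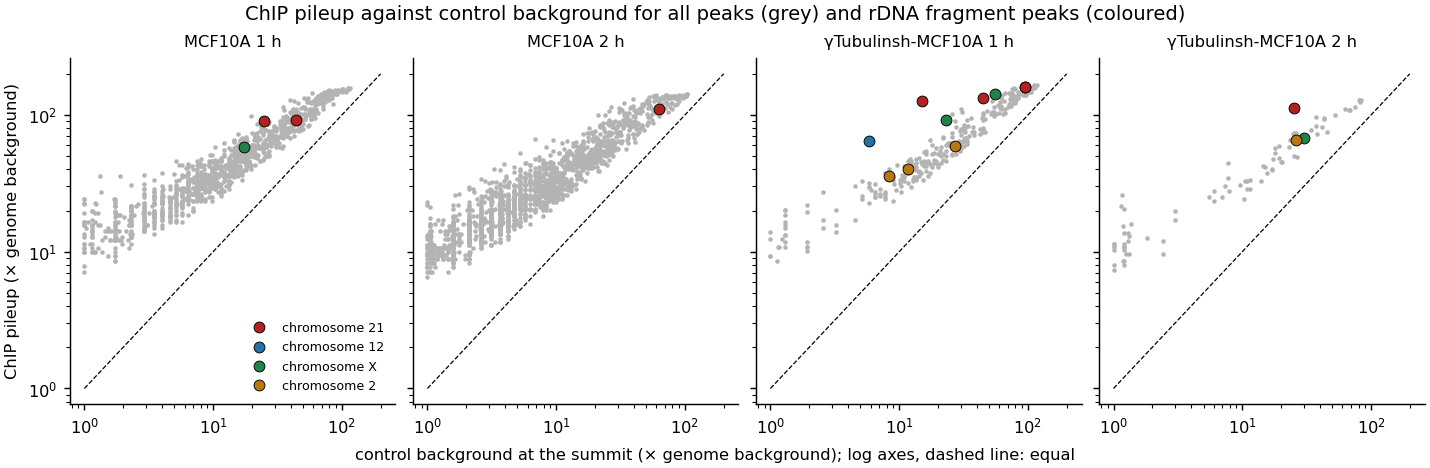
ChIP pileup against control background at the summit, both as multiples of the genome background on log axes, for all peaks of the 4 lists (grey) and the rDNA fragment peaks (coloured by chromosome); the dashed line marks equal values. In γTubulinsh-MCF10A cells at 1 h the leading chromosome 21 peak (126 against 15.1) and the chromosome 12 peak (64.7 against 5.81) are far above the line of equal values, and in MCF10A cells at 2 h the chromosome 21 peak (110.4 against 62.4) is closer to it.

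The windows ended in stretches without peaks. The nearest peak outside them was 8501 bp above the chromosome 21 window, in MCF10A cells at 2 h, with a score of 25 and a fold enrichment of 3.71. The next was 12381 bp below the chromosome 2 window, also in MCF10A cells at 2 h, with a score of 79 and a fold enrichment of 2.56. The chromosome X and chromosome 12 windows had no listed peak nearer than 2224859 bp.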

How the data were processed

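γ-Tubulin ChIP-seq of MCF10A and γTubulinsh-MCF10A cells was analysed from the 4 deposited peak lists, 1 per condition. Ion Proton reads were placed on hg19 by the authors with Bowtie 1.0.0, uniquely placed reads were kept, and both ChIP libraries of a condition went into 1 run of MACS2 2.1.1 (versions per the labels). The methods name differential peak calling, but the columns have the form of MACS2 calls against a control. In all 2962 peaks the deposited score was 10 times the deposited −log10 q-value without its decimals. The fold enrichment is a ratio the authors' caller took at the summit, with 1 added to pileup and control, and −log10 p-values and q-values came from the same deposited calls. Positions are counted from 1.

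Pileup and control were solved from fold enrichment and p-value under the MACS2 formulas. Checks on artificial peaks made with the same formulas covered the solving, not whether the deposited lists follow them. Pileups came within 0.02 of whole reads in 100% of peaks, in γTubulinsh-MCF10A cells at 2 h after division by a scale of 0.943. The solution nearest a whole number was kept for each peak, and that scale was picked for the most whole pileups, so this share is partly built in. The lowest control of a list (1.40, 1.69, 1.28 and 1.66 reads for MCF10A 1 h, MCF10A 2 h, γTubulinsh-MCF10A 1 h and γTubulinsh-MCF10A 2 h) stood for its genome background. These values rest on MACS2 defaults. Read totals are not in the lists and the depth of the libraries is unknown. Ranks give tied peaks the better rank. Every peak in the windows is named; members, gene list and settings were chosen with earlier results of these data known. No sequence of hg19 was used here. Computations used scipy 1.17.1, pandas 2.3.3 and numpy 2.4.6 in Python 3.11.15, and plots matplotlib 3.10.9.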

Additional observations from a re-analysis of the deposited data

Results flagged for a closer look

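At the leading chromosome 21 place, 2 measures moved in opposite directions from 1 h to 2 h in the 2 cell populations, with 1 list per condition, so the difference was not tested. The ChIP pileup relative to the genome background rose by 20.3 in MCF10A cells (from 90.1 to 110.4) and changed by -14.2 in γTubulinsh-MCF10A cells (from 126 to 112). The opposite signs hold on this scale and not for the unscaled reads at the summit, which were higher at 2 h in both populations (126 and 187 in MCF10A, 162 and 197 in γTubulinsh-MCF10A). The peak length changed by 12 bp in MCF10A cells (from 292 to 304) and by -27 bp in γTubulinsh-MCF10A cells (from 369 to 342). Over the same times the shortest peak of the list went from 110 to 120 bp in MCF10A cells and from 106 to 115 bp in γTubulinsh-MCF10A cells. Its part in the length changes was not tested. The score, the fold enrichment and the number of rDNA fragment peaks went down in both populations, and the control background went up in both. As a share of the list, rDNA fragment peaks went from 0.290% to 0.0646% in MCF10A cells and from 3.38% to 3.57% in γTubulinsh-MCF10A cells.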

How the results depend on the processing

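No paired analysis was possible because the 2 libraries of a condition share a single list, which also left no replicate to leave out. Under other settings, 35 values stayed within 1.5 times the reported one or, for fold enrichment, within its counting interval, and 31 did not. Values follow in the order MCF10A 1 h, MCF10A 2 h, γTubulinsh-MCF10A 1 h and γTubulinsh-MCF10A 2 h. With a score threshold at the pooled median of 85 there were 3, 0, 6 and 2 peaks (541, 0, 1299 and 462 bp), and at the pooled 75th percentile of 132 there were 2, 0, 5 and 1 (415, 0, 1187 and 342 bp). A minimum length of 200 bp left 1, 1, 4 and 1 (292, 304, 1326 and 342 bp). Each of these drops peaks by its construction. When neighbours within 1000 bp were joined, 2, 1, 5 and 3 peaks were counted. Windows widened by 10000 bp added 1 peak, which brought MCF10A cells at 2 h to 2 peaks and 519 bp. γTubulinsh-MCF10A cells had the higher number at 1 h under every one of these settings, and at 2 h under all but the minimum length, where both had 1. The leading chromosome 21 peak ranked 446, 1492, 9 and 30 by fold enrichment and 137, 329, 16 and 7 by length, so its first rank in both γTubulinsh-MCF10A lists held for the score and the p-value and not for these measures. Its control was 2.26, 9.92, 0.651 and 2.33 times the median control of the list, a change of denominator that left the order of the 4 lists as reported. With an overlap of at least 0.5 of both peaks, or summits within 100 bp, 1 place was shared by all 4 lists, as reported. The lists give values only where a peak passed, and the lowest −log10 q-value of a list was between 1.31 and 1.40.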
